A study of Mus musculus with 4 samples.

Results

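The interferon gamma axis described here is a set of 7 genes out of 32285 in the feature lists, found by symbol: the cytokine Ifng, its receptor chains Ifngr1 and Ifngr2, the receptor-bound kinases Jak1 and Jak2, and the transcription factors Irf1 and Irf8. All 7 symbols were present. They were measured in single cells from subcutaneous tumours of Pan02, a line of mouse pancreatic cancer cells, carried by female C57BL/6 mice aged 6 to 7 weeks. The 4 libraries, each combining 3 samples, came from tumours given anti-PD-1 (an antibody that blocks an inhibitory receptor of T cells), anti-LIF (an antibody against the cytokine leukaemia inhibitory factor), both antibodies (combo) or IgG (control). Groups were formed when tumours measured about 50 mm3. Dosing ran 3 times a week, at 200 µg for an anti-PD-1 injection and at 25 mg/kg for IgG as well as for anti-LIF. Pan02 is 1 transplanted line, here under the skin and not in the pancreas, and the samples combined in a library could not be told apart.

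Interferon gamma is made mainly by activated T cells and NK cells. Its receptor pairs Ifngr1, which binds the cytokine, with Ifngr2, and these carry the kinases Jak1 and Jak2. Signalling from the receptor switches on genes with a gamma-activated site, among them Irf1, which drives further genes such as guanylate-binding proteins, antigen presentation genes and the chemokines Cxcl9 and Cxcl10. Irf8 answers interferon gamma in myeloid cells and is also a lineage factor of dendritic cells.

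For 3 members a promoter carried the gamma-activated site, searched as TTCNNNGAA, which reads the same on both strands. RefSeq promoters of build GRCm38.p6 reach from 250 bases before to 50 bases after a start site, and 9 of them belonged to the 7 members. The site was in 3 of these 9 and in 2726 of all 32851 promoters (8.30%). The 3 are shown because they belong to the cytokine and to both transcription factors, with the site in capitals. The Irf1 promoter shown is chr11:53769764-53770063, the Irf8 promoter shown chr8:120736108-120736407 and the Ifng promoter chr10:118440796-118441095, all on the plus strand. Irf1 and Irf8 each have another promoter, at chr11:53770223-53770522 and chr8:120738389-120738688, without the site.
Irf1: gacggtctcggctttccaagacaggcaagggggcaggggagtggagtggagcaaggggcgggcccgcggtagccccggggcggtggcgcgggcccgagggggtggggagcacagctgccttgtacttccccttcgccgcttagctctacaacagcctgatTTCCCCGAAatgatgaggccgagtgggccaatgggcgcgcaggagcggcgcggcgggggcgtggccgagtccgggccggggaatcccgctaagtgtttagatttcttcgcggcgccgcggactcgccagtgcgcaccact
Irf8: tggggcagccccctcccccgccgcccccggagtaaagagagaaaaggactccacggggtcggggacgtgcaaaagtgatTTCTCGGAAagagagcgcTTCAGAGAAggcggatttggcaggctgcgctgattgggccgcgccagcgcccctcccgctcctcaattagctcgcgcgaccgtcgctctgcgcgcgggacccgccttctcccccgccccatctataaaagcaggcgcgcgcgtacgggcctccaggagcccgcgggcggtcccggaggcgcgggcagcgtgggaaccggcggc
Ifng: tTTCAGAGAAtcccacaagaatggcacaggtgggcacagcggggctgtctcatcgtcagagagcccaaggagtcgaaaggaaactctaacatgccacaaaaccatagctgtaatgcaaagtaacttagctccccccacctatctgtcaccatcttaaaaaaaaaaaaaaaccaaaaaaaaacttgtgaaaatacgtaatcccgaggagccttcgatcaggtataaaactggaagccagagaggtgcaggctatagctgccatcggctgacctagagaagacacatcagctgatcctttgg
The Irf1 match begins 90 bases before the start site, and the Ifng match 249 bases before it. Irf8 has a match 171 bases and another 153 bases before its start. The interferon-stimulated response element, searched on both strands as GAAA, any 2 bases, GAAA, was in 0 of the 9 and in 1131 of all promoters (3.44%). A match says only that these letters are there.

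In the GENCODE M21 annotation of mm10, Ifng lies on chromosome 10 at 118441046 to 118445892 and Ifngr1 on the same chromosome at 19591949 to 19610229. Ifngr2 lies on chromosome 16 at 91547072 to 91565623, Jak1 on chromosome 4 at 101152367 to 101265282 and Jak2 on chromosome 19 at 29251828 to 29313080. Irf1 lies on chromosome 11 at 53770014 to 53778374 and Irf8 on chromosome 8 at 120736358 to 120756694. Jak1 is on the minus strand and the other 6 genes are on the plus strand.

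With 1 library a group there was no test. A level is the unique molecular identifiers (UMIs, counted mRNA molecules) of a gene in a class of cells, scaled to a fixed total (CPM), with an exact 95% Poisson interval, and differences are log2 ratios of levels with exact 95% intervals. These intervals cover counting error only, and the 3 ratios over control share 1 control library. Kept cells numbered 14392 (anti-PD-1), 14014 (anti-LIF) and 16397 (combo), against 18640 (control), with median depths of 1731 UMIs (anti-PD-1), 1674.5 (anti-LIF) and 2288 (combo), against 2171 (control). Cells were put in classes by marker genes, none of which is a member, and a class name below means cells carrying those markers. Cells in no class made up 32.9% (anti-PD-1), 24.2% (anti-LIF) and 25.7% (combo) of kept cells, against 30.2% (control). They had the cancer cell marker Krt18 at 561 CPM (anti-PD-1), 792 (anti-LIF) and 792 (combo), against 487 (control). The cancer cell class therefore need not hold all cancer cells. Doublets were not removed, and 4.75% to 5.57% of the kept barcodes of a library also occurred in another library. Xist, which the classes do not use, was at 3.996 CPM (anti-PD-1), 4.88 (anti-LIF) and 3.85 (combo), against 2.43 (control) in cancer cells and at 110.2 CPM (anti-PD-1), 136 (anti-LIF) and 132 (combo), against 97.3 (control) in macrophages of the female hosts. Fibroblasts had Xist at 80.9 CPM (anti-PD-1), 136 (anti-LIF) and 149.7 (combo), against 67.8 (control).

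Over all kept cells Ifng was lower in each treated library, while CD8 T cells, its main source, had levels within 2-fold of control. The level over all kept cells was 11.03 CPM (10.2 to 11.9) under anti-PD-1, 7.79 (7.06 to 8.57) under anti-LIF and 4.23 (3.82 to 4.68) under combo, against 35.4 (34.2 to 36.5) in control. The log2 ratios over control were -1.68 (-1.80 to -1.57) with anti-PD-1, -2.18 (-2.33 to -2.04) with anti-LIF and -3.06 (-3.22 to -2.91) with combo. These are decreases of 3.21-fold with anti-PD-1, 4.54-fold with anti-LIF and 8.35-fold with combo. The share of all measured genes at least 2-fold lower over all kept cells was 4.23% under anti-PD-1, 6.09% under anti-LIF and 5.74% under combo. T cells numbered 1584 (anti-PD-1), 1079 (anti-LIF) and 1351 (combo), against 6662 (control). In such sums fewer cells of a type and less RNA per cell cannot be told apart.

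CD8 T cells, the killer T cells, had Ifng at 223 CPM (203 to 245) under anti-PD-1, 312 (270.3 to 358) under anti-LIF and 184 (158 to 213) under combo, against 192 (184 to 201) in control, from 440 UMIs (anti-PD-1), 202 UMIs (anti-LIF) and 179 UMIs (combo), against 2088 UMIs (control). The log2 ratios over control were 0.22 (0.064 to 0.36) with anti-PD-1, 0.70 (0.48 to 0.91) with anti-LIF and -0.061 (-0.29 to 0.16) with combo. The anti-PD-1 and anti-LIF libraries were above control and the combo interval spanned 0. Combo over anti-PD-1 gave -0.28 (-0.54 to -0.026) and combo over anti-LIF -0.76 (-1.06 to -0.46). Few cells carried much of this signal: the 10 CD8 T cells with most Ifng UMIs held the following shares of them: 20% (anti-PD-1), 37.6% (anti-LIF) and 27.9% (combo), against 6.23% (control). Without those 10 cells in each library the ratios were -0.012 with anti-PD-1, 0.11 with anti-LIF and -0.44 with combo. CD8 T cells numbered 1043 (anti-PD-1), 428 (anti-LIF) and 537 (combo), against 4483 (control), so 10 cells are a larger part of the treated classes.

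Ifng was detected in a like share of CD8 T cells in all 4 libraries once each cell was thinned to 1000 UMIs. The thinned share was 16.7% (14.03 to 19.6) under anti-PD-1, 14.4% (10.4 to 19.2) under anti-LIF and 12.6% (9.60 to 16.2) under combo, against 15.9% (14.8 to 17.1) in control, and the 4 intervals overlapped. Shallower cells left out numbered 330 (anti-PD-1), 164 (anti-LIF) and 117 (combo), against 684 (control). Without thinning the share was 23.5% (anti-PD-1), 23.8% (anti-LIF) and 20.7% (combo), against 26.4% (control). Cancer cells should lack the gene, and thinned cells with an Ifng UMI there numbered 0 among 945 (anti-PD-1), 0 among 1004 (anti-LIF) and 0 among 1117 (combo), against 3 among 2979 (control). Median depths were 1317 UMIs (anti-PD-1), 1199.5 (anti-LIF) and 1486 (combo), against 1630 (control) in CD8 T cells and 7748 UMIs (anti-PD-1), 5859 (anti-LIF) and 10584 (combo), against 10601.5 (control) in cancer cells before thinning.

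Conventional CD4 T cells, the helper cells without the regulatory marker genes, gave another order. Ifng was at 265 CPM (208 to 333) under anti-PD-1, 124 (89.4 to 166) under anti-LIF and 72.4 (48.5 to 104) under combo, against 159 (135 to 187) in control, from 74 UMIs (anti-PD-1), 43 UMIs (anti-LIF) and 29 UMIs (combo), against 148 UMIs (control). The log2 ratios over control were 0.74 (0.31 to 1.15) with anti-PD-1, -0.35 (-0.89 to 0.13) with anti-LIF and -1.12 (-1.76 to -0.55) with combo. Anti-PD-1 was highest and combo lowest, and combo over anti-PD-1 was -1.86 (-2.55 to -1.24). The share of genes measured in this class that were at least 2-fold lower than in control was 5.52% under anti-PD-1, 5.23% under anti-LIF and 6.52% under combo.

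Regulatory T cells (Treg) had Ifng at 2 UMIs (anti-PD-1), 0 UMIs (anti-LIF) and 0 UMIs (combo), against 27 UMIs (control), and the cells numbered 109 (anti-PD-1), 120 (anti-LIF) and 227 (combo), against 216 (control). The control level was 52.5 CPM, while 0 UMIs allow up to 10.1 CPM under anti-LIF and 5.14 CPM under combo, with the limit set at 3 counts per library. NK cells had Ifng at 12 UMIs (anti-PD-1), 2 UMIs (anti-LIF) and 17 UMIs (combo), against 13 UMIs (control), and the cells numbered 30 (anti-PD-1), 16 (anti-LIF) and 49 (combo), against 51 (control). Their levels were 276 CPM (142 to 482) under anti-PD-1, 62.1 (7.52 to 224) under anti-LIF and 167 (97.5 to 268) under combo, against 172 (91.7 to 294) in control, and each interval spanned a wide range. In control the order ran from CD8 T cells over NK cells to conventional CD4 T cells, with overlapping intervals, and Treg lay below them.

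**Figure D1:**
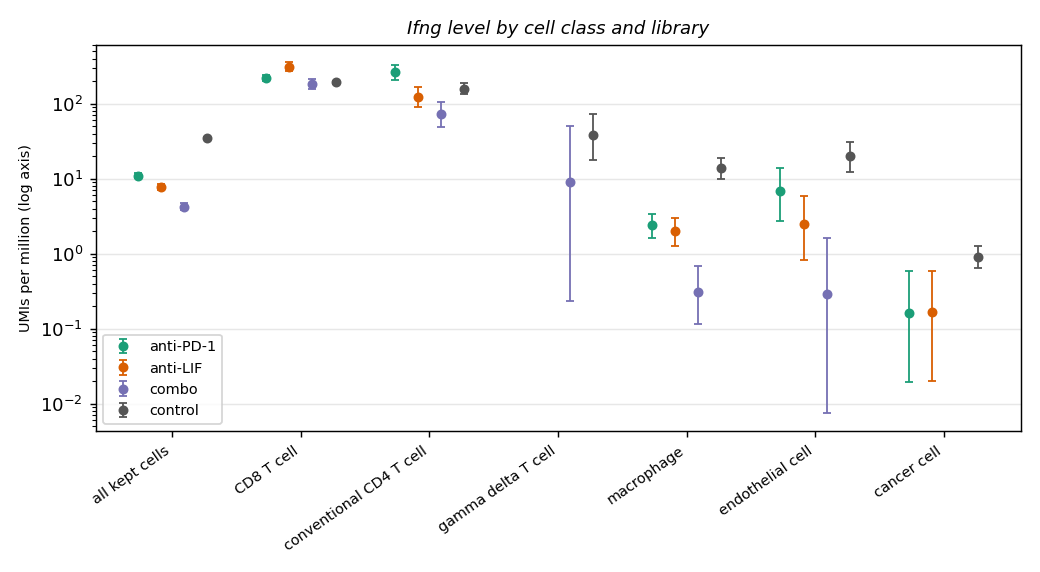
Ifng level in CPM (log axis) by cell class, for anti-PD-1, anti-LIF, combo and control from left to right. Points are 1 library each with exact 95% Poisson bars, and a class with 0 UMIs has no point. CD8 T cells lie between 184 and 312 in all 4 libraries, while all kept cells lie at 11.03 (anti-PD-1), 7.79 (anti-LIF) and 4.23 (combo), against 35.4 (control).

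T cells held most Ifng UMIs of each library, with shares of 82.96% (79.99 to 85.7) under anti-PD-1, 71.2% (66.6 to 75.5) under anti-LIF and 73.4% (68.7 to 77.8) under combo, against 74.6% (73.1 to 75.96) in control. CD8 T cells alone held 61.97% (anti-PD-1), 48.1% (anti-LIF) and 47.1% (combo), against 57% (control). Cells in no class held 8.45% (anti-PD-1), 19.05% (anti-LIF) and 16.3% (combo), against 20.3% (control). Macrophages, which are not a main source of the cytokine, had Ifng at 2.38 CPM (anti-PD-1), 1.98 (anti-LIF) and 0.314 (combo), against 13.95 (control). All 9 T cell markers were detected in macrophages of each library and summed to 69.3 CPM (anti-PD-1), 48.6 (anti-LIF) and 34.8 (combo), against 371 (control). Endothelial cells had Ifng at 6.83 CPM (anti-PD-1), 2.52 (anti-LIF) and 0.294 (combo), against 20.1 (control) beside T cell markers at 84.9 CPM (anti-PD-1), 46.3 (anti-LIF) and 18.8 (combo), against 411 (control). The part of T cell RNA in these Ifng values was not tested.

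The inducers of Ifng were listed as the cytokines Il12a, Il12b, Il18 and Il27, the receptor chains Il12rb1, Il12rb2, Il18r1 and Il18rap, and the factors Stat4, Tbx21 and Eomes. Among the 9 of 11 measured in CD8 T cells, 1 of 9 under anti-PD-1, 3 of 9 under anti-LIF and 2 of 9 under combo were at least 2-fold higher. The share of all genes measured there that were as much higher was 5.07% under anti-PD-1, 8.08% under anti-LIF and 7.15% under combo. The interleukin 18 receptor chain Il18r1 was at 85.3 under anti-PD-1, 137 under anti-LIF and 109.9 under combo, against 46.6 in control. Tbx21, the T-bet factor of interferon gamma producing T cells, was at 118 under anti-PD-1, 129.7 under anti-LIF and 84.2 under combo, against 57.3 in control. Eomes, a related factor, was at 99.5 under anti-PD-1, 213 under anti-LIF and 193 under combo, against 105 in control. These 3 reached 2-fold in at least 1 treated library. Il18rap, the partner of Il18r1, was at 67.5 under anti-PD-1, 91.1 under anti-LIF and 98.6 under combo, against 46.6 in control. The interleukin 12 receptor chain Il12rb2 was at 101 under anti-PD-1, 113 under anti-LIF and 103 under combo, against 93.2 in control. Il12b had 0 UMIs in CD8 T cells of the 3 treated libraries, against 24 UMIs (2.21 CPM) in control. A count of 0 allows up to 1.52 CPM under anti-PD-1, 4.63 CPM under anti-LIF and 3.08 CPM under combo, so that a lower level was not detectable at this depth under anti-LIF and combo. Over all kept cells, with fewer T cells in the treated libraries, the inducers at least 2-fold lower were 4 of 11 under anti-PD-1, 5 of 11 under anti-LIF and 5 of 11 under combo, and of all genes measured in all kept cells 4.23% under anti-PD-1, 6.09% under anti-LIF and 5.74% under combo were as much lower. Il12b encodes a chain of interleukin 12. Its level in mature dendritic cells, a class that it helped to mark, was 921 under anti-PD-1, 726 under anti-LIF and 603 under combo, against 1168 in control.

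Ifngr1 was high in T cells and NK cells and lower in cancer cells. CD8 T cells had 1063 CPM under anti-PD-1, 1158 under anti-LIF and 1246 under combo, against 825 in control, with log2 ratios of 0.37 (0.30 to 0.43) with anti-PD-1, 0.49 (0.38 to 0.60) with anti-LIF and 0.60 (0.51 to 0.68) with combo. All 3 treated libraries were above control, by less than 2-fold. Cancer cells had 52.6 under anti-PD-1, 45.9 under anti-LIF and 51.5 under combo, against 58.2 in control, with log2 ratios of -0.15 (-0.28 to -0.019) with anti-PD-1, -0.34 (-0.48 to -0.21) with anti-LIF and -0.18 (-0.29 to -0.067) with combo. Here all 3 were slightly below control. Macrophages had 195 under anti-PD-1, 187 under anti-LIF and 187 under combo, against 167 in control, with ratios of 0.22 with anti-PD-1, 0.16 with anti-LIF and 0.16 with combo, or 0.086 with anti-PD-1, 0.054 with anti-LIF and 0.084 with combo set against the median of all genes measured there. Conventional CD4 T cells had 857 under anti-PD-1, 1014 under anti-LIF and 1340.4 under combo, against 864 in control, and combo stood highest among them. In control the order ran from NK cells at 1231, over Treg at 902, conventional CD4 T cells at 864, CD8 T cells at 825 and gamma delta T cells at 769.7, to monocytes at 332 and cDC1, the cross-presenting dendritic cells, at 328. The intervals of neighbours among the T cell subsets overlapped, that of NK cells lay above them, and that of monocytes below.

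Mature dendritic cells, the migrating form, had less Ifngr1 under anti-LIF and combo. Their levels were 139 CPM (89.1 to 207) under anti-PD-1, 65.97 (40.8 to 101) under anti-LIF and 70.99 (49.2 to 99.2) under combo, against 158 (113 to 216) in control, from 24 UMIs (anti-PD-1), 21 UMIs (anti-LIF) and 34 UMIs (combo), against 40 UMIs (control). The log2 ratios were -0.18 (-0.98 to 0.58) with anti-PD-1, -1.25 (-2.10 to -0.47) with anti-LIF and -1.15 (-1.86 to -0.46) with combo. The T cell marker Cd3e was at 34.8 CPM (anti-PD-1), 0 (anti-LIF) and 6.26 (combo), against 39.6 (control) in these cells. The part of T cell RNA in their Ifngr1 values was not tested. The share of genes measured in them that were at least 2-fold lower than in control was 13.7% under anti-PD-1, 11.2% under anti-LIF and 7.88% under combo. Fibroblasts had Ifngr1 at 73.04 CPM (anti-PD-1), 105 (anti-LIF) and 116 (combo), against 80.8 (control), with Xist differing between the same libraries as given above.

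Ifngr2, the chain that completes the receptor for signalling, was low in CD8 T cells and higher in macrophages. CD8 T cells had 22.3 CPM under anti-PD-1, 15.4 under anti-LIF and 19.5 under combo, against 13.6 in control, from 44 UMIs (anti-PD-1), 10 UMIs (anti-LIF) and 19 UMIs (combo), against 148 UMIs (control). Macrophages had 161 under anti-PD-1, 137 under anti-LIF and 129.6 under combo, against 82.04 in control, with log2 ratios of 0.97 (0.78 to 1.17) with anti-PD-1, 0.74 (0.55 to 0.94) with anti-LIF and 0.66 (0.47 to 0.85) with combo. All 3 treated libraries were above control there and short of 2-fold. Conventional CD4 T cells had 39.4 under anti-PD-1, 63.2 under anti-LIF and 72.4 under combo, against 13.98 in control, from 11 UMIs (anti-PD-1), 22 UMIs (anti-LIF) and 29 UMIs (combo), against 13 UMIs (control). Gamma delta T cells had 86.9 CPM (31.9 to 189) under anti-PD-1, 109 (49.98 to 207) under anti-LIF and 193 (119 to 295) under combo, against 76.97 (45.6 to 122) in control, from 6 UMIs (anti-PD-1), 9 UMIs (anti-LIF) and 21 UMIs (combo), against 18 UMIs (control). Gamma delta T cells stood above CD8 T cells in each library, on few UMIs. The ratios of conventional CD4 T cells were 1.51 (0.19 to 2.77) with anti-PD-1, 2.16 (1.12 to 3.29) with anti-LIF and 2.34 (1.38 to 3.44) with combo. The share of genes measured in them that were at least 2-fold higher was 3.8% under anti-PD-1, 3.29% under anti-LIF and 4.13% under combo. Cancer cells had 52.02 under anti-PD-1, 55.6 under anti-LIF and 53.7 under combo, against 46.3 in control, with ratios of 0.17 (0.034 to 0.30) with anti-PD-1, 0.26 (0.13 to 0.39) with anti-LIF and 0.21 (0.10 to 0.33) with combo. Set against the median ratio of all genes measured in cancer cells, they were 0.0074 with anti-PD-1, 0.072 with anti-LIF and 0.048 with combo, so that Ifngr2 lay near that median. In control all 14 pairs of neighbouring classes had overlapping Ifngr2 intervals, so the order of single classes was not resolved at this depth.

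**Figure D2:**
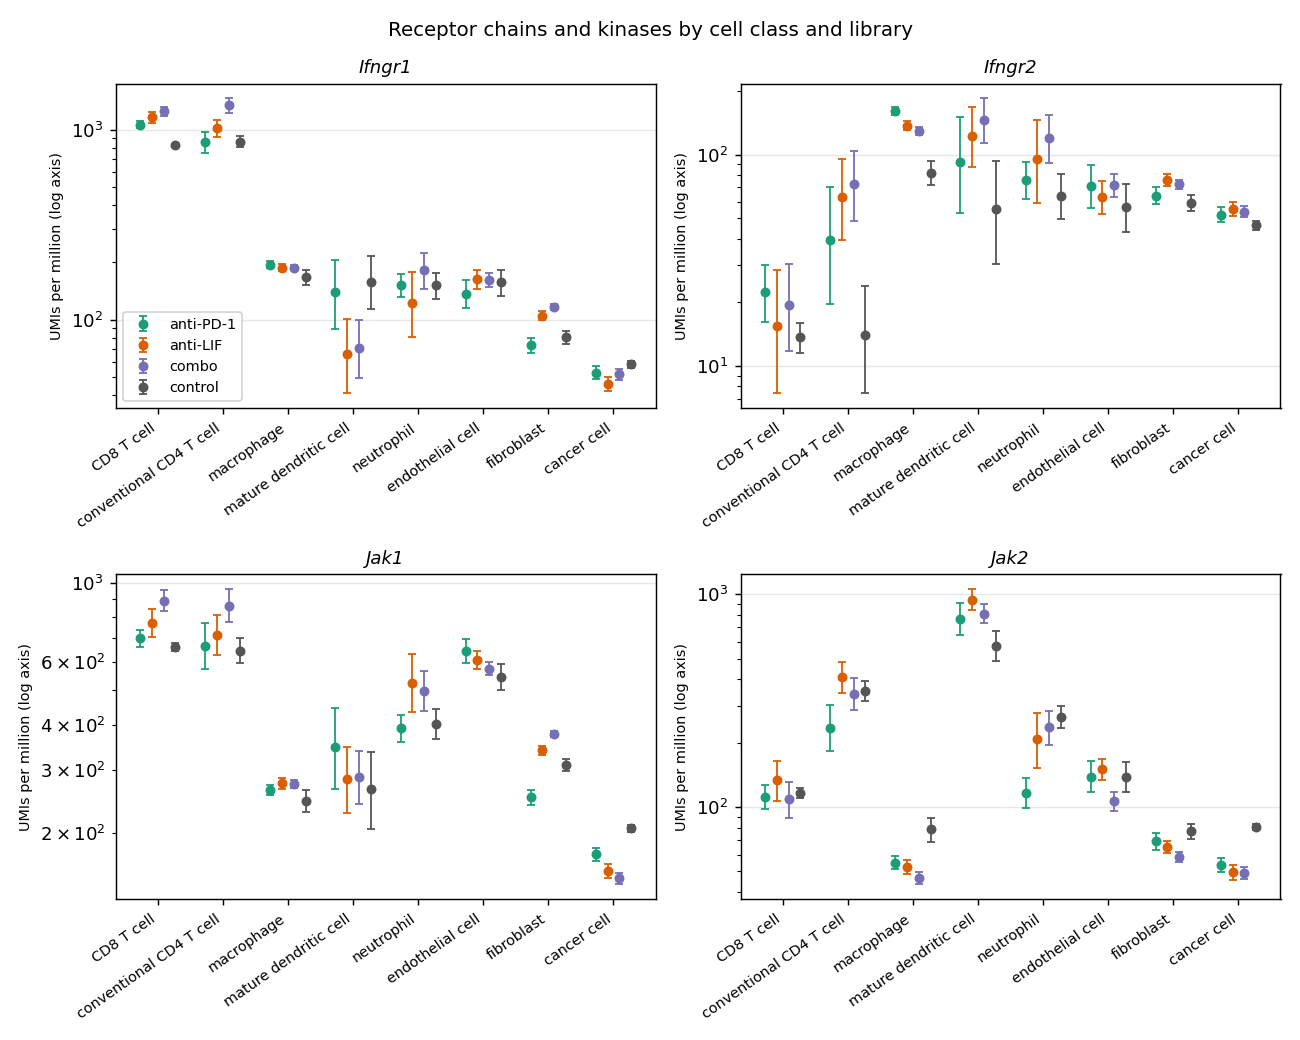
Levels of Ifngr1, Ifngr2, Jak1 and Jak2 in CPM (log axes) by cell class, for anti-PD-1, anti-LIF, combo and control from left to right, with exact 95% Poisson bars of 1 library each. Ifngr1 lies at 1063 (anti-PD-1), 1158 (anti-LIF) and 1246 (combo), against 825 (control) in CD8 T cells and at 52.6 (anti-PD-1), 45.9 (anti-LIF) and 51.5 (combo), against 58.2 (control) in cancer cells, while Jak2 reaches 770.5 (anti-PD-1), 946 (anti-LIF) and 812 (combo), against 574 (control) in mature dendritic cells.

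Jak1, bound to Ifngr1 and to many other cytokine receptors, was highest in NK cells, at 1086 CPM in control, with the T cell subsets next. CD8 T cells had 699 under anti-PD-1, 772 under anti-LIF and 891 under combo, against 661 in control, with log2 ratios of 0.080 (-0.0043 to 0.16) with anti-PD-1, 0.22 (0.090 to 0.35) with anti-LIF and 0.43 (0.33 to 0.53) with combo. Cancer cells had 174 under anti-PD-1, 156 under anti-LIF and 149 under combo, against 206 in control, with log2 ratios of -0.24 (-0.31 to -0.17) with anti-PD-1, -0.40 (-0.47 to -0.33) with anti-LIF and -0.46 (-0.53 to -0.40) with combo. Jak1 under anti-LIF and combo was thus above control in CD8 T cells and below it in cancer cells, by less than 2-fold. Macrophages had 263 under anti-PD-1, 275 under anti-LIF and 273 under combo, against 246 in control. Endothelial cells, which line vessels, had 646 under anti-PD-1, 608 under anti-LIF and 576 under combo, against 547 in control.

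Jak2, bound to Ifngr2, was highest in mature dendritic cells and higher there in the treated libraries, with cDC1 next in control and an overlapping interval. They had 770.5 CPM (645 to 913) under anti-PD-1, 946 (842 to 1059) under anti-LIF and 812 (734 to 897) under combo, against 574 (484 to 675) in control, and the cells numbered 51 (anti-PD-1), 85 (anti-LIF) and 112 (combo), against 54 (control). The log2 ratios were 0.43 (0.074 to 0.77) with anti-PD-1, 0.72 (0.43 to 1.02) with anti-LIF and 0.50 (0.22 to 0.79) with combo. Cancer cells had 53.7 under anti-PD-1, 49.6 under anti-LIF and 49.2 under combo, against 80.9 in control, with ratios of -0.59 (-0.72 to -0.47) with anti-PD-1, -0.70 (-0.83 to -0.58) with anti-LIF and -0.72 (-0.83 to -0.61) with combo. Macrophages had 54.9 under anti-PD-1, 52.5 under anti-LIF and 46.5 under combo, against 78.7 in control, with ratios of -0.52 (-0.73 to -0.30) with anti-PD-1, -0.59 (-0.80 to -0.36) with anti-LIF and -0.76 (-0.97 to -0.55) with combo. Both classes were below control in all 3 treated libraries, by less than 2-fold. Neutrophils had 117 under anti-PD-1, 208 under anti-LIF and 237 under combo, against 266 in control, and anti-PD-1 was past 2-fold at -1.19 (-1.48 to -0.90). The share of genes measured in neutrophils that were as much lower under anti-PD-1 was 8.91%. CD8 T cells had 112 under anti-PD-1, 134 under anti-LIF and 109 under combo, against 117 in control, with ratios of -0.056 (-0.27 to 0.15) with anti-PD-1, 0.21 (-0.13 to 0.52) with anti-LIF and -0.095 (-0.40 to 0.19) with combo.

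The signalling partners and brakes were a list of 12 genes. In cancer cells its median log2 ratios were -0.23 with anti-PD-1, -0.38 with anti-LIF and -0.47 with combo. The medians over all genes measured in cancer cells were 0.16 with anti-PD-1, 0.19 with anti-LIF and 0.17 with combo. Stat3, which also carries the LIF signal, was at 138 under anti-PD-1, 106 under anti-LIF and 103 under combo, against 195 in control. Socs3, a brake that Stat3 induces, was at 293 under anti-PD-1, 170.3 under anti-LIF and 198 under combo, against 334 in control. The phosphatase gene Ptpn11 was at 65.1 under anti-PD-1, 64.3 under anti-LIF and 63.2 under combo, against 62.3 in control. Stat3 in CD8 T cells was at 790.1 under anti-PD-1, 746 under anti-LIF and 726 under combo, against 1108 in control, and Socs1, a brake on the Jak kinases, at 92.9 under anti-PD-1, 128 under anti-LIF and 121 under combo, against 64.4 in control. Both Stat3 series were below control, while Socs1 in CD8 T cells was above it.

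Irf1 was lower in cancer cells of each treated library, most under anti-LIF and combo. Its level was 325 CPM (315 to 335) under anti-PD-1, 144 (137 to 151) under anti-LIF and 128 (123 to 133) under combo, against 605 (597 to 613) in control. The log2 ratios over control were -0.90 (-0.95 to -0.85) with anti-PD-1, -2.07 (-2.14 to -2.0) with anti-LIF and -2.24 (-2.31 to -2.18) with combo. These are decreases of 1.86-fold with anti-PD-1, 4.20-fold with anti-LIF and 4.73-fold with combo. The 4 intervals did not overlap. Combo over anti-PD-1 was -1.35 (-1.42 to -1.27) and combo over anti-LIF -0.17 (-0.26 to -0.083). The share of cancer cells with an Irf1 UMI was 24.02% (anti-PD-1), 15.04% (anti-LIF) and 12.2% (combo), against 38.97% (control) after thinning to 1000 UMIs and 62.9% (anti-PD-1), 44.9% (anti-LIF) and 50.6% (combo), against 82.98% (control) before it. Without thinning, the share of cancer cells with a UMI of the division genes Mki67 or Top2a was 52.01% (anti-PD-1), 59.6% (anti-LIF) and 58.6% (combo), against 48.4% (control). Among those cells the Irf1 ratios were -1.01 with anti-PD-1, -2.25 with anti-LIF and -2.44 with combo. Among the rest they were -0.63 with anti-PD-1, -1.54 with anti-LIF and -1.65 with combo. Irf1 was thus below control in both sets. The 11 macrophage and monocyte markers summed to 48.2 CPM (anti-PD-1), 44.2 (anti-LIF) and 54.2 (combo), against 7.24 (control) in cancer cells, and T cell markers to 6.44 CPM (anti-PD-1), 6.04 (anti-LIF) and 7.27 (combo), against 16.7 (control). The part of these in the Irf1 values was not tested.

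Under anti-LIF and combo the Irf1 differences from control were smaller in the other classes described. Under anti-PD-1 the difference of monocytes was larger than that of cancer cells. Macrophages had 259.6 under anti-PD-1, 303 under anti-LIF and 203 under combo, against 396 in control, with ratios of -0.61 with anti-PD-1, -0.38 with anti-LIF and -0.97 with combo. CD8 T cells had 204 under anti-PD-1, 241 under anti-LIF and 259 under combo, against 374 in control, with ratios of -0.87 (-1.03 to -0.73) with anti-PD-1, -0.63 (-0.87 to -0.40) with anti-LIF and -0.53 (-0.72 to -0.35) with combo. Both classes were below control in each treated library. The 9 cancer cell markers summed to 163 CPM (anti-PD-1), 67.9 (anti-LIF) and 153 (combo), against 292 (control) in CD8 T cells. The part of cancer cell RNA in their Irf1 values was not tested. Endothelial cells had 622 under anti-PD-1, 849.8 under anti-LIF and 788 under combo, against 853 in control, with ratios of -0.45 (-0.60 to -0.31) with anti-PD-1, -0.0063 (-0.12 to 0.11) with anti-LIF and -0.12 (-0.22 to -0.0039) with combo, so that anti-LIF was near control there. Treg had 590.2 under anti-PD-1, 487 under anti-LIF and 435 under combo, against 469 in control. Neutrophils had 342 under anti-PD-1, 308 under anti-LIF and 303 under combo, against 593 in control. Monocytes had 384 under anti-PD-1, 459 under anti-LIF and 283 under combo, against 1195 in control, and the cells numbered 504 (anti-PD-1), 447 (anti-LIF) and 416 (combo), against 52 (control). The share of genes measured in monocytes that were at least 2-fold lower was 6.97% under anti-PD-1, 6.57% under anti-LIF and 8% under combo. Fibroblasts had 231 under anti-PD-1, 323 under anti-LIF and 329 under combo, against 433 in control. In control, monocytes stood highest, followed by endothelial cells, mature dendritic cells at 712, gamma delta T cells at 641, cancer cells and neutrophils, whose neighbouring intervals overlapped. Macrophages and CD8 T cells lay lower. In the combo library cancer cells stood below all of these.

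**Figure D3:**
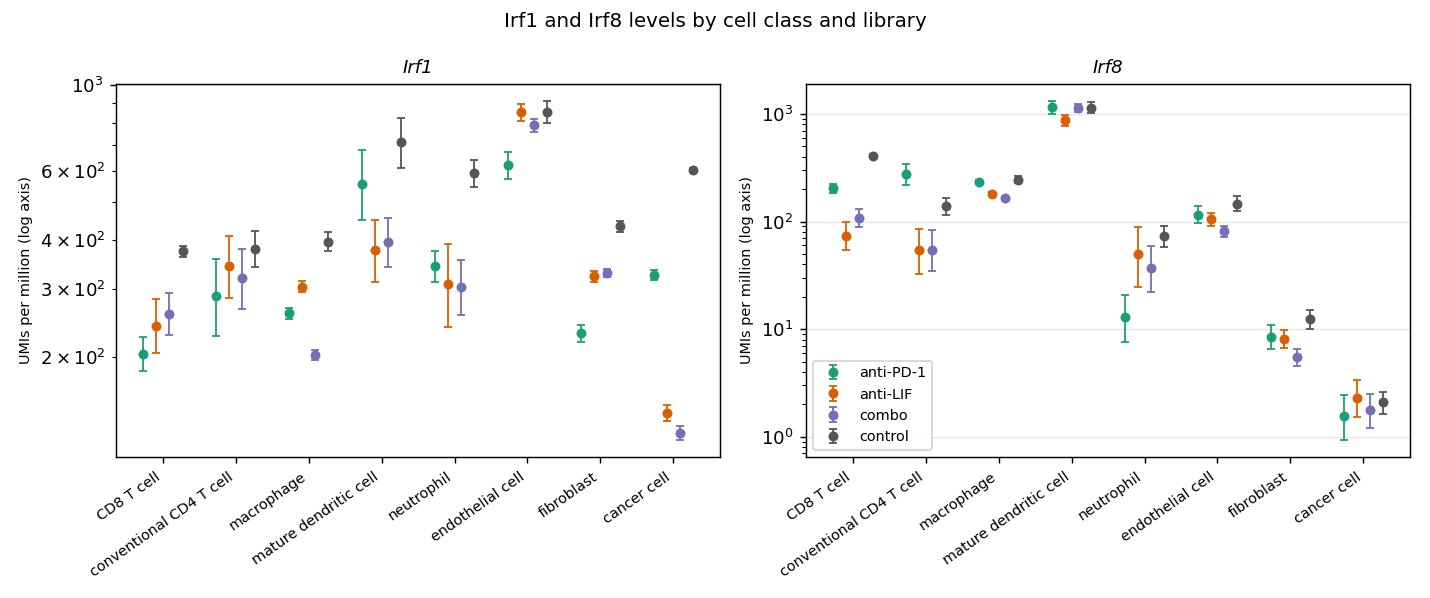
Levels of Irf1 and Irf8 in CPM (log axes) by cell class, for anti-PD-1, anti-LIF, combo and control from left to right, with exact 95% Poisson bars of 1 library each. Irf1 in cancer cells lies at 325 (anti-PD-1), 144 (anti-LIF) and 128 (combo), against 605 (control), and Irf8 in CD8 T cells at 204 (anti-PD-1), 74.1 (anti-LIF) and 109 (combo), against 409 (control).

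Irf8 was lower in CD8 T cells of each treated library. Its level was 204 CPM (185 to 225) under anti-PD-1, 74.1 (54.6 to 98.3) under anti-LIF and 109 (89.1 to 132) under combo, against 409 (397 to 421) in control. The log2 ratios were -1.002 (-1.15 to -0.86) with anti-PD-1, -2.45 (-2.91 to -2.06) with anti-LIF and -1.90 (-2.20 to -1.63) with combo. These are decreases of 2.003-fold with anti-PD-1, 5.46-fold with anti-LIF and 3.74-fold with combo. At no more than 10% mitochondrial UMIs the anti-PD-1 ratio was -0.84, under 2-fold. The share of genes measured in CD8 T cells that were at least 2-fold lower was 4.91% under anti-PD-1, 14.3% under anti-LIF and 8.13% under combo. The share of CD8 T cells with an Irf8 UMI was 9.40% (anti-PD-1), 4.92% (anti-LIF) and 6.43% (combo), against 21.4% (control) after thinning to 1000 UMIs and 11.8% (anti-PD-1), 6.54% (anti-LIF) and 8.19% (combo), against 27.7% (control) before it. In thinned cancer cells, where Irf8 should be absent, the share was 0.317% (anti-PD-1), 0.0996% (anti-LIF) and 0.448% (combo), against 0.403% (control). The 10 CD8 T cells with most Irf8 UMIs held these shares of them: 38.3% (anti-PD-1), 62.5% (anti-LIF) and 57.5% (combo), against 5.31% (control). Without those cells the ratios were -1.62 with anti-PD-1, -3.76 with anti-LIF and -3.05 with combo. All 3 were further below control without them. As 10 cells are a larger part of the smaller treated classes, removing them lowers the treated sums more, and no conclusion is drawn from that. Macrophage and monocyte markers, which go with Irf8 in myeloid cells, summed to 319 CPM (anti-PD-1), 343 (anti-LIF) and 318 (combo), against 58.2 (control) in these CD8 T cells. The markers were higher in each treated library, and their part in the Irf8 values was not tested.

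Without thinning, the share of CD8 T cells with a UMI of the killing genes Gzmb or Prf1 was 45.6% (anti-PD-1), 26.2% (anti-LIF) and 37.99% (combo), against 44.7% (control). Irf8 in those cells was at 319 CPM (anti-PD-1), 66.6 (anti-LIF) and 162 (combo), against 578 (control). Irf8 in CD8 T cells without them was at 78.7 CPM (anti-PD-1), 77.7 (anti-LIF) and 67.7 (combo), against 195 (control). Each treated library was thus below control in both sets. The sets depend on depth, which differed between libraries as given above, and a shallow cell can lack a UMI of a gene that it expresses. Ifng was at 246 CPM (anti-PD-1), 324 (anti-LIF) and 201 (combo), against 180.5 (control) in CD8 T cells with killing genes and at 199 CPM (anti-PD-1), 306 (anti-LIF) and 170.2 (combo), against 207 (control) in those without.

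In NK cells, cDC1 and mature dendritic cells, classes that Irf8 is known for, its level differed less than in CD8 T cells. NK cells had 2252 under anti-PD-1, 2081 under anti-LIF and 2629.7 under combo, against 2331 in control. The cDC1 had 1084 under anti-PD-1, 1011 under anti-LIF and 1391 under combo, against 1089 in control, and the cells numbered 48 (anti-PD-1), 42 (anti-LIF) and 45 (combo), against 91 (control). Mature dendritic cells had 1159 under anti-PD-1, 873 under anti-LIF and 1144 under combo, against 1148 in control. No treated library stood 2-fold from control in these 3 classes. NK cells and cDC1 numbered under 50 in each treated library. Monocytes were lower than in control, at 188 CPM (166 to 211) under anti-PD-1, 171 (148 to 196) under anti-LIF and 155 (136 to 176) under combo. Their control level was 384 (279 to 515), from 52 cells, and that interval lay above those of the treated libraries. In control NK cells stood highest, above mature dendritic cells and cDC1, whose intervals overlapped, and above CD8 T cells. Macrophages had 234 under anti-PD-1, 182 under anti-LIF and 165 under combo, against 246 in control, with ratios of -0.069 (-0.18 to 0.049) with anti-PD-1, -0.43 (-0.55 to -0.31) with anti-LIF and -0.58 (-0.69 to -0.46) with combo. Conventional CD4 T cells had 276 under anti-PD-1, 54.6 under anti-LIF and 54.9 under combo, against 139 in control, with ratios of 0.997 (0.57 to 1.41) with anti-PD-1, -1.31 (-2.12 to -0.64) with anti-LIF and -1.31 (-2.06 to -0.68) with combo. The share of the library's Irf8 UMIs in T cells was 9.95% (anti-PD-1), 2.78% (anti-LIF) and 3.53% (combo), against 53.7% (control), and that in macrophages with monocytes was 61.2% (anti-PD-1), 59.8% (anti-LIF) and 53.9% (combo), against 7.57% (control).

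**Figure D4:**
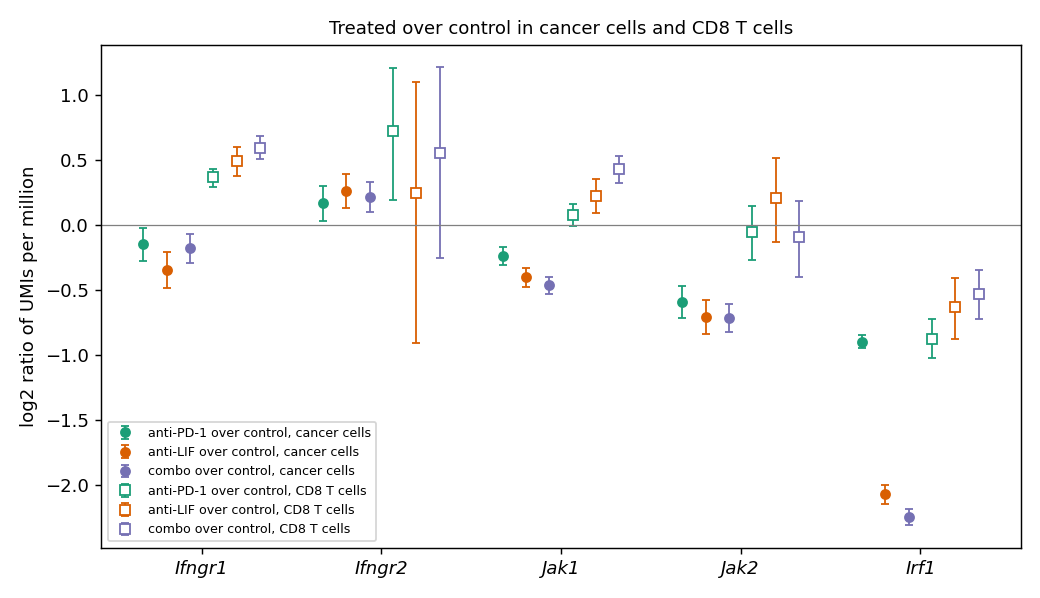
Log2 ratio over control of Ifngr1, Ifngr2, Jak1, Jak2 and Irf1 in cancer cells (filled circles) and CD8 T cells (open squares), for anti-PD-1, anti-LIF and combo from left to right, with exact 95% bars from counting error. Ifngr1 is above 0 in CD8 T cells (0.37 with anti-PD-1, 0.49 with anti-LIF and 0.60 with combo) and below 0 in cancer cells (-0.15 with anti-PD-1, -0.34 with anti-LIF and -0.18 with combo).

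The list of 26 genes that answer interferon gamma was lower in cancer cells of the treated libraries. At least 2-fold lower were 12 of 26 under anti-PD-1, 24 of 26 under anti-LIF and 24 of 26 under combo, while the share of all genes measured in cancer cells that were as much lower was 3.75% under anti-PD-1, 7.03% under anti-LIF and 5.93% under combo. Median log2 ratios were -0.85 with anti-PD-1, -2.47 with anti-LIF and -2.82 with combo. None of the 26 was above control in any of the 3. With a looser rule for the cancer cell class, the anti-PD-1 count was 5 of 26. Combo over anti-PD-1 had 23 of 26 at least 2-fold lower, with a median of -1.88 and a background of 3.11%. Combo over anti-LIF had 0 of 26, with a median of -0.17 and a background of 2.21%.

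The gene of the checkpoint ligand PD-L1, Cd274, had a cancer cell level of 35.2 CPM under anti-PD-1, 8.19 under anti-LIF and 7.43 under combo, against 97.98 in control. The T cell attracting chemokine Cxcl9 was at 102 under anti-PD-1, 31.1 under anti-LIF and 29.01 under combo, against 268 in control, and Cxcl10 at 229 under anti-PD-1, 47.6 under anti-LIF and 78.4 under combo, against 667 in control. Control was highest for all 3. The guanylate-binding protein gene Gbp2 was at 504 under anti-PD-1, 148 under anti-LIF and 129 under combo, against 1345 in control, Gbp4 at 32.5 under anti-PD-1, 4.47 under anti-LIF and 5.18 under combo, against 65.4 in control, and the GTPase gene Igtp at 173 under anti-PD-1, 46.4 under anti-LIF and 42.9 under combo, against 425 in control. Under anti-LIF and combo the smallest differences were those of Ido1, an enzyme of tryptophan breakdown, with ratios of -0.22 with anti-PD-1, -0.55 with anti-LIF and -0.41 with combo, and of Socs1, at -0.49 with anti-PD-1, -0.96 with anti-LIF and -0.68 with combo. Under anti-PD-1, beside Ido1, the proteasome subunit gene Psmb8 (-0.18), the peptide transporter gene Tap2 (-0.41) and Irgm2 (-0.42) were nearest to control. Psmb10 was at -1.32 under anti-LIF and -1.35 under combo, and Nlrc5, which drives class I genes, at -1.73 under combo.

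Macrophages had a smaller shift of the same list than cancer cells, a difference that was not tested, with 2 of 26 under anti-PD-1, 9 of 25 under anti-LIF and 14 of 26 under combo at least 2-fold lower. The share of all genes measured there was 5.18% under anti-PD-1, 7.88% under anti-LIF and 8.69% under combo. Medians were -0.39 with anti-PD-1, -0.80 with anti-LIF and -1.04 with combo, with medians of all genes at 0.13 with anti-PD-1, 0.11 with anti-LIF and 0.080 with combo. Cxcl9 was at 834 under anti-PD-1, 325 under anti-LIF and 254 under combo, against 1129 in control and Cd274 at 62.5 under anti-PD-1, 57.4 under anti-LIF and 52.97 under combo, against 142 in control. Gbp2 had ratios of -1.02 with anti-PD-1, -1.84 with anti-LIF and -2.13 with combo, and Gbp4 of -0.96 with anti-PD-1, -1.96 with anti-LIF and -2.27 with combo. Near control were Socs1, at -0.23 with anti-PD-1, -0.30 with anti-LIF and -0.31 with combo, Gbp7, at 0.39 with anti-PD-1, -0.067 with anti-LIF and 0.10 with combo, and Ciita, the switch of class II genes, at 0.26 with anti-PD-1, 0.32 with anti-LIF and 0.39 with combo. The macrophages numbered 3782 (anti-PD-1), 3560 (anti-LIF) and 3847 (combo), against 552 (control), and T cell markers differed in them as given above. The 9 cancer cell markers summed to 207 CPM (anti-PD-1), 178 (anti-LIF) and 187 (combo), against 575 (control) in macrophages. The part of cancer cell RNA in the macrophage values was not tested.

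In neutrophils the response genes at least 2-fold lower were 10 of 24 under anti-PD-1, 12 of 24 under anti-LIF and 15 of 24 under combo, while of all genes measured there 8.91% under anti-PD-1, 26.5% under anti-LIF and 14.4% under combo were as much lower. Medians were -0.93 with anti-PD-1, -0.97 with anti-LIF and -1.25 with combo, with medians of all genes at -0.11 with anti-PD-1, -0.31 with anti-LIF and -0.094 with combo. The list median with anti-PD-1 was -0.85 in cancer cells, where the median of all genes was 0.16. Which of the classes shifted more with anti-PD-1 was not tested. Cd274 was at 107 under anti-PD-1, 213 under anti-LIF and 136 under combo, against 329 in control, and Cxcl9 at 62.7 under anti-PD-1, 9.06 under anti-LIF and 37.1 under combo, against 176 in control. Control was highest for both. Socs1 was at 47.4 under anti-PD-1, 45.3 under anti-LIF and 119.6 under combo, against 79.8 in control, highest under combo. The cancer cell marker Krt18 was at 161 CPM (anti-PD-1), 154 (anti-LIF) and 111 (combo), against 346 (control) in neutrophils. The part of cancer cell RNA in the neutrophil values was not tested.

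Fibroblasts had 5 of 25 under anti-PD-1, 10 of 25 under anti-LIF and 10 of 25 under combo at least 2-fold lower, beside 2.78% under anti-PD-1, 7.25% under anti-LIF and 6.7% under combo of all genes measured there, with medians of -0.64 with anti-PD-1, -0.73 with anti-LIF and -0.83 with combo. Cd274 was at 13.7 under anti-PD-1, 7.49 under anti-LIF and 5.94 under combo, against 44.98 in control and Cxcl9 at 260.3 under anti-PD-1, 494 under anti-LIF and 265 under combo, against 282 in control, so that Cxcl9 did not share the direction of Cd274 under anti-LIF. The 9 cancer cell markers summed to 214 CPM (anti-PD-1), 73.4 (anti-LIF) and 108 (combo), against 455 (control) in fibroblasts. The part of cancer cell RNA in the fibroblast values was not tested. Monocytes had 6 of 24 under anti-PD-1, 7 of 23 under anti-LIF and 9 of 23 under combo, beside the backgrounds for monocytes given above, with medians of -0.61 with anti-PD-1, -0.26 with anti-LIF and -0.67 with combo, on few cells in control as given above. Cd274 was at 68.01 under anti-PD-1, 76.4 under anti-LIF and 51.5 under combo, against 253 in control and Cxcl9 at 102 under anti-PD-1, 96.9 under anti-LIF and 83.1 under combo, against 288 in control there.

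In endothelial cells the response genes at least 2-fold lower were 2 of 24 under anti-PD-1, 1 of 26 under anti-LIF and 1 of 26 under combo, with medians of -0.41 with anti-PD-1, -0.13 with anti-LIF and -0.61 with combo. The share of all genes measured there was 3.17% under anti-PD-1, 3.48% under anti-LIF and 3.25% under combo. At least 2-fold higher were 0 of 24 under anti-PD-1, 1 of 26 under anti-LIF and 1 of 26 under combo, and of all genes measured 4.91% under anti-PD-1, 6.99% under anti-LIF and 7.44% under combo. Cd274 was at 72.2 under anti-PD-1, 94.6 under anti-LIF and 84.6 under combo, against 204 in control and Cxcl9 at 447 under anti-PD-1, 579.6 under anti-LIF and 561 under combo, against 1006 in control. Socs1 was the higher gene, at 52.7 under anti-PD-1, 107 under anti-LIF and 123 under combo, against 45.9 in control. The 9 cancer cell markers summed to 101 CPM (anti-PD-1), 92.1 (anti-LIF) and 128 (combo), against 187 (control) in endothelial cells. T cell markers in them are given above, and the part of such RNA in the endothelial values was not tested.

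The list was not lower as a whole in CD8 T cells, with medians of 0.19 with anti-PD-1, 0.25 with anti-LIF and 0.26 with combo, beside medians of all genes at 0.081 with anti-PD-1, 0.019 with anti-LIF and 0.079 with combo. At least 2-fold higher were 1 of 25 under anti-PD-1, 4 of 25 under anti-LIF and 4 of 25 under combo, and lower 1 of 25 under anti-PD-1, 2 of 25 under anti-LIF and 0 of 25 under combo, beside the backgrounds for CD8 T cells given above. Cxcl10 was at 163 under anti-PD-1, 256 under anti-LIF and 633 under combo, against 109 in control, and Cxcl9 at 33.5 under anti-PD-1, 27.8 under anti-LIF and 231 under combo, against 48.1 in control. Both were highest under combo. Irgm2 had ratios of 1.33 with anti-PD-1, 1.35 with anti-LIF and 1.63 with combo, and Gbp5 of 0.91 with anti-PD-1, 1.22 with anti-LIF and 1.57 with combo. Cd274 was at 40.1 under anti-PD-1, 61.8 under anti-LIF and 82.2 under combo, against 54.2 in control. Iigp1 at -1.44 and Gbp2 at -1.09 were the lowest under anti-LIF. Ciita had 1 UMI in CD8 T cells under anti-PD-1, against 36 UMIs in control, a ratio of -2.14 (-8.05 to -0.14). Macrophage and monocyte markers in these cells are given above, and the 8 fibroblast markers summed to 352 CPM (anti-PD-1), 367 (anti-LIF) and 981 (combo), against 722 (control). Their part in the Cxcl9 and Cxcl10 values was not tested. Cancer cell markers in CD8 T cells are given above with Irf1, and the part of cancer cell RNA in the Gbp2 values was not tested.

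**Figure D5:**
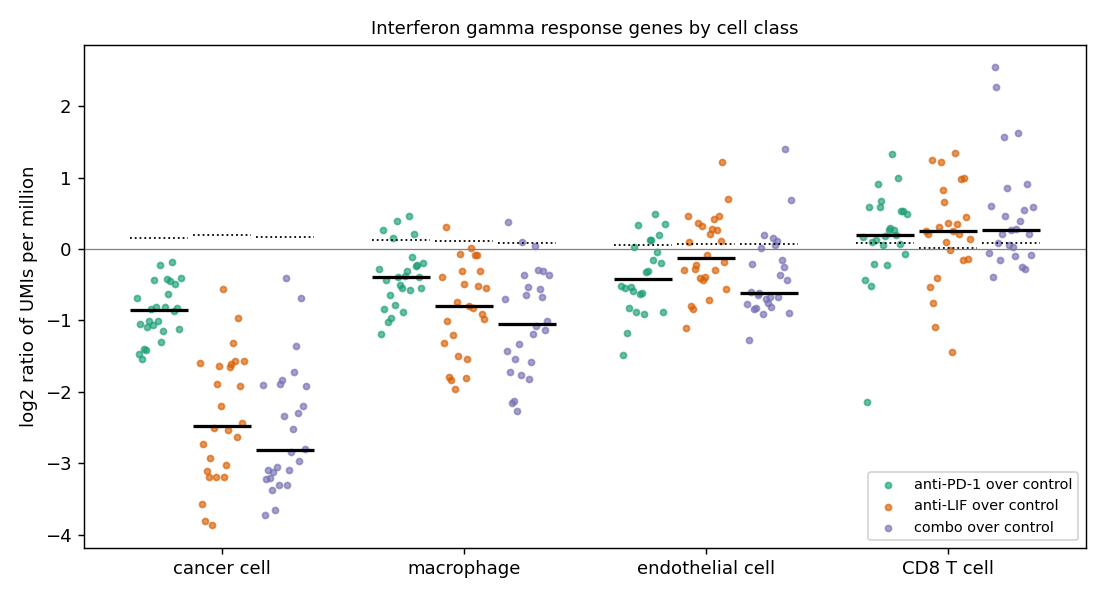
Log2 ratios over control of interferon gamma response genes with at least 20 UMIs in 1 of both libraries, 1 point a gene, in 4 cell classes for anti-PD-1, anti-LIF and combo from left to right. Solid bars are medians of the list (-0.85 with anti-PD-1, -2.47 with anti-LIF and -2.82 with combo in cancer cells) and dotted bars the medians of all genes measured.

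The other interferon regulatory factors were a list of 7, of which 6 were measured in CD8 T cells, macrophages and cancer cells. At least 2-fold higher in CD8 T cells were 1 of 6 under anti-PD-1, 3 of 6 under anti-LIF and 0 of 6 under combo, beside backgrounds there of 5.07% under anti-PD-1, 8.08% under anti-LIF and 7.15% under combo. Irf7, a factor of the type I interferon response, was at 28.9 under anti-PD-1, 57.1 under anti-LIF and 20.5 under combo, against 11.97 in control there. Irf2, which can oppose Irf1, was at 158 under anti-PD-1, 187 under anti-LIF and 154 under combo, against 92.9 in control. In macrophages 0 of 6 under anti-PD-1, 2 of 6 under anti-LIF and 1 of 6 under combo were at least 2-fold higher. The share of all genes measured there was 7.28% under anti-PD-1, 10.1% under anti-LIF and 10.3% under combo. Irf4, a factor of alternative macrophage activation, was at 6.42 under anti-PD-1, 24.9 under anti-LIF and 22.01 under combo, against 5.31 in control there. Cancer cells had Irf9, a factor of the type I interferon response, at 27.6 under anti-PD-1, 19.7 under anti-LIF and 18.2 under combo, against 42.3 in control.

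Across 59 sums of at least 50 cells each, from 19 sets of cells and 4 libraries, the genes most like each member were taken by Pearson's r of log2 CPM with 1 added. The sums share libraries and depth, so the values are a description. Ifng was most like Klrc1 (0.83), Gm2682 (0.83) and Eomes (0.81). Ifngr1 was most like Shisa5 (0.91), Zc3hav1 (0.91) and Itpkb (0.88), and Ifngr2 like Zfp516 (0.75), 5031439G07Rik (0.69) and Cdkn1a (0.68). Jak1 was most like Nr3c1 (0.87), Nsd3 (0.86) and Arhgef1 (0.85). Jak2 was most like Btla (0.79), Hivep1 (0.78) and Ccr7 (0.77), of which Ccr7 marks the mature dendritic class. Irf1 was most like Parp14 (0.79), Gbp3 (0.77) and Nfkbia (0.74), and Irf8 like Pik3r5 (0.78), Itga4 (0.78) and Map3k1 (0.77). Among members, Ifngr1 and Jak1 gave 0.77 and Ifngr1 and Ifngr2 -0.13.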

How the data were processed

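Single-cell RNA was measured in 4 tumour libraries made with a SeekOne MM 3' kit. The matrices deposited by the authors hold raw UMI counts, and the barcode and feature lists hold names. The submitters' processing notes name mm10 and Seurat 4.0.3 with no role. How reads were aligned and counted is not given in the sources used here, nor how cells were called. Library totals were 67503066 UMIs in 15191 barcodes (anti-PD-1), 57720774 in 15046 (anti-LIF), 94984486 in 17472 (combo) and 111164731 in 20393 (control).

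Kept cells had 200 or more genes and no more than 20% mitochondrial UMIs. A cell joined the class with most of its marker genes detected, if these were at least 2 and led the next class by 2. This scoring rule was set after the data were seen, and no doublet caller was run. UMIs were summed per class and library. Ratios had 0.5 added to each sum. A gene was measured with at least 20 UMIs in 1 of both libraries. "At least 2-fold" is a size, not a test. Intervals of shares are exact Clopper-Pearson intervals at 95%, and they cover counting error only. A count of 0 allows up to 3 counts. The ratio code was tested on simulated data. Members and gene lists were chosen with earlier results of these data known. List genes named are the 4 highest and 4 lowest ratios of a class, with Cxcl9, Cd274 and Socs1. Values of some listed genes are not reported here. Others named were chosen after their values were seen. Software was Python 3.11.15 with numpy 2.4.6, pandas 2.3.3, scipy 1.17.1 and matplotlib 3.10.9.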

Additional observations from a re-analysis of the deposited data

Results flagged for a closer look

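Ifngr1 and Jak2 were picked out because all 3 treated libraries moved one way in some classes and the opposite way in others, each with a counting interval clear of 0. The differences between classes were not tested, and each treated library was set against the same control library. Ifngr1 had log2 ratios over control of 0.37 (anti-PD-1), 0.49 (anti-LIF) and 0.60 (combo) in CD8 T cells, of 0.22, 0.16 and 0.16 in macrophages, and of -0.15, -0.34 and -0.18 in cancer cells. The medians of all genes measured in macrophages were 0.13 (anti-PD-1), 0.11 (anti-LIF) and 0.080 (combo). Set against these medians, as given above, the macrophage Ifngr1 ratios were smaller. Jak2 had ratios of 0.43, 0.72 and 0.50 in mature dendritic cells, of -0.59, -0.70 and -0.72 in cancer cells, and of -0.52, -0.59 and -0.76 in macrophages.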

How the results depend on the processing

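Each member's log2 ratio in cancer cells, CD8 T cells and macrophages was recomputed under other scalings, pseudocounts, filters and class rules. Ifng in cancer cells of combo, at 0 UMIs, was left out. The rule of at least 20 UMIs in 1 of both libraries left out no other ratio. Of 496 such values for 62 ratios none changed sign where the main ratio was at least 2-fold, 379 stayed within the counting interval and 117 moved beyond it. Of 80 values for ratios of at least 2-fold, 74 were still at least 2-fold. The cause of the moves below was not tested. Irf1 in cancer cells was -1.06 with anti-PD-1, -2.26 with anti-LIF and -2.41 with combo with the median of all genes set to 0, -0.82 with anti-PD-1, -1.87 with anti-LIF and -2.03 with combo as a mean over cells, -1.02 with anti-PD-1, -2.29 with anti-LIF and -2.41 with combo without the 10 highest cells, -1.06 with anti-PD-1, -2.30 with anti-LIF and -2.53 with combo with a stricter class rule, -0.78 with anti-PD-1, -1.85 with anti-LIF and -2.08 with combo with a looser one, and -0.81 with anti-PD-1, -2.01 with anti-LIF and -2.78 with combo at no more than 10% mitochondrial UMIs. The splits by division genes, killing genes and depth were added after the data were seen. They gave Irf1 -1.01 with anti-PD-1, -2.25 with anti-LIF and -2.44 with combo with division genes, -0.63 with anti-PD-1, -1.54 with anti-LIF and -1.65 with combo without, and -0.83 with anti-PD-1, -1.88 with anti-LIF and -2.09 with combo under 5000 UMIs. Ifng in cancer cells of anti-LIF, which held 2 Ifng UMIs, was 0.70 (-5.59 to 7.00) in cells under 5000 UMIs. That value rests on 1 UMI against 1 UMI in control, and no direction is read from it. The looser rule left 5 response genes at least 2-fold lower under anti-PD-1. Ifng in CD8 T cells was -0.012 with anti-PD-1, 0.11 with anti-LIF and -0.44 with combo without the 10 highest cells, 0.15 with anti-PD-1, 0.47 with anti-LIF and -0.20 with combo as a mean over cells, 0.22 with anti-PD-1, 0.48 with anti-LIF and -0.38 with combo at the lower mitochondrial limit, 0.45 with anti-PD-1, 0.85 with anti-LIF and 0.17 with combo with killing genes and -0.058 with anti-PD-1, 0.57 with anti-LIF and -0.28 with combo without. The Irf8 values in CD8 T cells, in the same order of settings, were -1.62 with anti-PD-1, -3.76 with anti-LIF and -3.05 with combo, -1.19 with anti-PD-1, -2.54 with anti-LIF and -1.99 with combo, -0.84 with anti-PD-1, -2.85 with anti-LIF and -1.88 with combo, -0.86 with anti-PD-1, -3.07 with anti-LIF and -1.83 with combo and -1.30 with anti-PD-1, -1.30 with anti-LIF and -1.50 with combo. No paired analysis was possible because each group had 1 library, which also leaves no library to leave out. Classes of few cells, such as NK cells, limit what the depth can show.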
